A study of Mus musculus with 29 samples.

Results

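Loss of both transcription factors Gli2 and Gli3 was compared with loss of the receptor protein Smo in fibroblasts sorted from the mouse common bile duct. The Gli2FFGli3FF group and the SmoFF group held 4 RNA-seq libraries each, 8 of the 29 libraries of the series, and all genes were compared. Both groups carried Pdgfra:CreERT2, which drives an inducible Cre recombinase in Pdgfra-expressing mesenchymal cells, and a Rosa26 tdTomato reporter behind a floxed stop. Gli2FFGli3FF animals had floxed Gli2 and Gli3 alleles in addition, and SmoFF animals a floxed Smo allele. FF is read here as homozygous loxP-flanked, by the convention of mouse genetics, and the flanked exons, the time of Cre induction and the age of the animals are not stated in the labels. A group of 5 wild type libraries with the same Cre and reporter serves to place single genes. For replicate 5 of these the description reads SmoFF while title and genotype read wild type, by which it was grouped. Smo was at 22.6 to 36.2 CPM (read counts scaled to library size with TMM factors) over the 5 wild type libraries. About 1000 sorted cells of an individual duct went into each library. Of 55401 genes listed, 24383 passed the filter on low counts and were tested.

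Hedgehog ligands bind Ptch1, which otherwise holds the membrane protein Smo inactive. Active Smo acts through the primary cilium on the zinc finger factors Gli2 and Gli3. Gli2 serves mainly as the activator, whereas Gli3 is mainly cut to a repressor when Smo is silent. Loss of Smo therefore leaves Gli repressor forms in the cell, while loss of Gli2 with Gli3 removes activator and repressor together. Gli1, Ptch1 and Hhip are the classical target genes of the pathway and are used as its readout.

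Library makeup differed between the genotypes in several measures. Total counts were 23581747 to 38301189 in Gli2FFGli3FF and 18606446 to 24652617 in SmoFF. A ribosomal RNA locus took 44.6 ± 5.89% of counts in Gli2FFGli3FF and 18.8 ± 9.26% in SmoFF (SD, n = 4 each, 2-sided exact permutation p = 0.0286, the smallest that 4 against 4 libraries can give). Mitochondrial transcripts took 7.78 ± 0.605% and 4.95 ± 0.937%, pseudogenes 11.1 ± 0.367% and 6.37 ± 1.30% of counts outside that locus, and 18799.5 ± 1424 and 21563.5 ± 1074 genes were detected in Gli2FFGli3FF and SmoFF (exact permutation p = 0.0286 for each). Xist stood at 29.3, 46.3, 18.2 and 6.17 CPM in Gli2FFGli3FF replicates 1 to 4 and at 251.6, 0.0296, 0 and 389.5 CPM in SmoFF replicates 1 to 4. Y-linked genes summed to 1.74 to 200 CPM in Gli2FFGli3FF and 15.7 to 138 CPM in SmoFF. All 4 Gli2FFGli3FF libraries and SmoFF replicates 1 and 4 therefore held transcripts of both kinds, although cells were sorted per individual animal. The part that these measures play in the gene changes was not tested beyond the fits given with the counts below.

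The sorted cells had the transcripts of fibroblasts in both genotypes. Pdgfra stood at 253.2, 266.1, 285.3 and 303 CPM in the Gli2FFGli3FF libraries and at 161.8, 117.5, 223.8 and 183.1 CPM in the SmoFF libraries, and Col1a1, a chain of type I collagen, at 2391 to 2876 and 1142 to 2143 CPM. Pdgfra was higher in Gli2FFGli3FF (log2 change 0.69, SE 0.18, adjusted p = 0.0111), with no overlap between the groups. The 13 tested immune markers summed to 91.0 to 582 CPM in Gli2FFGli3FF and 16.6 to 277 CPM in SmoFF, and 0 of them passed the edgeR test in either direction, 1 having an unadjusted p under 0.05 and 0 passing DESeq2 or limma voom. Without SmoFF replicate 1 or 2, 2 and 1 immune markers were called higher. In libraries of sorted cells such as these, fewer cells of a type and less RNA per cell cannot be told apart.

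In the direct comparison 1873 genes were higher in Gli2FFGli3FF than in SmoFF, which is 7.68% of the genes tested, and 2154 were lower, which is 8.83% (edgeR quasi-likelihood test, Benjamini-Hochberg adjusted p under 0.05). The libraries of the groups did not overlap for 1597 of the higher and 1566 of the lower genes. Counts of list members given below are to be read against these shares. The median log2 change over all genes tested was −0.27. Leaving out Gli2FFGli3FF replicate 1, 2 or 3 took the count of lower genes to 1276, 1320 and 1323. With the ribosomal RNA share as a covariate 261 genes were higher and 233 lower. In all 26 other settings tried, 85 genes were called higher and 115 lower, all of them protein-coding because 1 setting tested only such genes. They include Smo, Ccn2, Acta2 and Col4a5 among the higher and Gli3, Pi16, Cd248, Gsn and Dact2 among the lower genes.

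The floxed genes were lowest in the genotype meant to lack them. Gli3 stood at 7.62, 6.38, 2.82 and 6.39 CPM in Gli2FFGli3FF replicates 1 to 4, against 49.3, 21.6, 48.1 and 50.2 CPM in SmoFF replicates 1 to 4. All 4 Gli2FFGli3FF libraries lay under the lowest SmoFF library, replicate 2, and the difference passed the test (log2 change −2.86, SE 0.32, adjusted p = 3.24e-06). Gli2 stood at 1.55, 6.38, 5.4 and 5.99 CPM in Gli2FFGli3FF and 29.2, 11.5, 16.5 and 11.7 CPM in SmoFF. The groups did not overlap (log2 change −1.83, SE 0.44, adjusted p = 0.00593), and some Gli2 and Gli3 reads remained in every Gli2FFGli3FF library. Gli2 did not pass the test with offsets for GC content and length (log2 change −1.11, adjusted p = 0.0892). The Ctnnb1FF libraries, whose label names no floxed Gli allele, were low as well. Their means were 12.6 CPM of Gli3 and 9.84 CPM of Gli2, against 36.4 and 17.7 CPM in wild type. Smo stood at 46.9, 52.9, 47.9 and 31.7 CPM in Gli2FFGli3FF, against 9.05, 7.78, 6.81 and 7.85 CPM in SmoFF. Each Gli2FFGli3FF library was above each SmoFF library (log2 change 2.51, SE 0.23, adjusted p = 1.92e-07). Wild type libraries had 29.6 ± 5.95 CPM of Smo (SD, n = 5), and Smo was also called in Gli2FFGli3FF against wild type (log2 change 0.60, adjusted p = 0.0469). For scale, 17.2% of genes were called between Gli2FFGli3FF and wild type and 1.55% between SmoFF and wild type.

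The 3 classical target genes did not move together. Gli1, the amplifying activator of the family, stood at 0.27, 1.06, 0.43 and 2.51 CPM in Gli2FFGli3FF, against 12.3, 4.29, 12.7 and 18.9 CPM in SmoFF. Gli1 was lower in each Gli2FFGli3FF library than in any SmoFF library (log2 change −3.47, SE 0.69, adjusted p = 0.00125), and 3 of the 4 SmoFF libraries lay in the wild type range of 7.95 to 26.9 CPM. Ptch1, the receptor that restrains Smo, stood at 46.5, 32.97, 74.3 and 76.2 CPM in Gli2FFGli3FF and 24.6, 27.6, 32.9 and 34.02 CPM in SmoFF. Wild type libraries had 20.55 to 36.97 CPM of Ptch1, with a mean of 30.75 CPM beside 29.79 CPM in SmoFF. Gli2FFGli3FF replicates 1, 3 and 4 were above all SmoFF libraries, replicate 2 lay inside their range, and the difference missed the threshold (log2 change 0.95, SE 0.34, adjusted p = 0.0572). It passed under 10 of 26 alternatives, among them DESeq2, GC and length offsets (log2 change 1.24, adjusted p = 0.0224) and the fits without Gli2FFGli3FF replicate 1 (log2 change 1.11, adjusted p = 0.0464) or replicate 2 (1.22, adjusted p = 0.0223).

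Hhip, the membrane protein that binds and sequesters Hedgehog ligands, stood at 1.21, 2.08, 9.58 and 13.9 CPM in Gli2FFGli3FF, against 2.65, 1.63, 0.239 and 1.05 CPM in SmoFF. Gli2FFGli3FF replicates 3 and 4 were high and replicates 1 and 2 lay inside the SmoFF range. The test called Hhip higher (log2 change 2.26, SE 0.74, adjusted p = 0.0395), but not without Gli2FFGli3FF replicate 3 (log2 change 2.10) or 4 (1.62), nor without SmoFF replicate 2 (2.32), 3 (1.87) or 4 (2.10). Hhip kept its call in 13 of 26 alternatives. It lost the call with limma voom, GC and length offsets, the ribosomal RNA covariate and only the 8 libraries, among others. Wild type libraries had 1.27 to 14.4 CPM of Hhip. Their mean of 5.66 CPM lay near the Gli2FFGli3FF mean of 6.70 CPM and above the SmoFF mean of 1.39 CPM. Of the 8 Gli2FFGli3FF and SmoFF libraries, Gli2FFGli3FF replicates 3 and 4 had the most Ptch1 and the most Hhip.

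Osr1, a zinc finger factor of foregut mesenchyme, stood at 82.7, 83.5, 102.5 and 79.1 CPM in Gli2FFGli3FF and 186.1, 194.3, 172.2 and 186.1 CPM in SmoFF. The values were tight within each genotype and the groups stood apart (log2 change −1.09, SE 0.19, adjusted p = 0.000324). SmoFF was near the wild type level of 202.2 ± 29.5 CPM (SD, n = 5). Osr1 was also low in other genotypes of the series, with means of 80.53 CPM in Gli2FF, 57.07 CPM in Gli3FF and 87.18 CPM in SmoM2. Bmp4, a ligand gene that Hedgehog signals induce in gut mesenchyme, stood at 15.7, 25.8, 9.21 and 15.98 CPM in Gli2FFGli3FF and 73.6, 55.8, 68.6 and 34.8 CPM in SmoFF. It fell in Gli2FFGli3FF relative to SmoFF with no overlap (log2 change −1.80, SE 0.28, adjusted p = 9.3e-05), and wild type lay between them at 30.04 ± 4.3 CPM (SD, n = 5). Osr1, Bmp4 and Gli1 were the 3 members called lower among 13 tested feedback and target genes, and Hhip the 1 called higher, with a median log2 change of −1.09. With the ribosomal RNA share as a covariate, Smo (log2 change 2.52, adjusted p = 0.00142) and Gli3 (−2.94, adjusted p = 0.00361) passed the test. Gli2 (−1.65, adjusted p = 0.202), Gli1 (−2.44, adjusted p = 0.169), Osr1 (−1.20, adjusted p = 0.0515) and Bmp4 (−1.50, adjusted p = 0.0662) kept their sign in that fit and did not pass. The forkhead factor genes Foxf1 and Foxf2 did not pass the test, with 5.06 to 16.5 and 0 to 2.27 CPM in Gli2FFGli3FF and 9.82 to 25.7 and 1.6 to 11.3 CPM in SmoFF. Foxl1, another forkhead gene of subepithelial fibroblasts, was at 0 counts in all 4 Gli2FFGli3FF and in 3 of 4 SmoFF libraries.

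**Figure D1:**
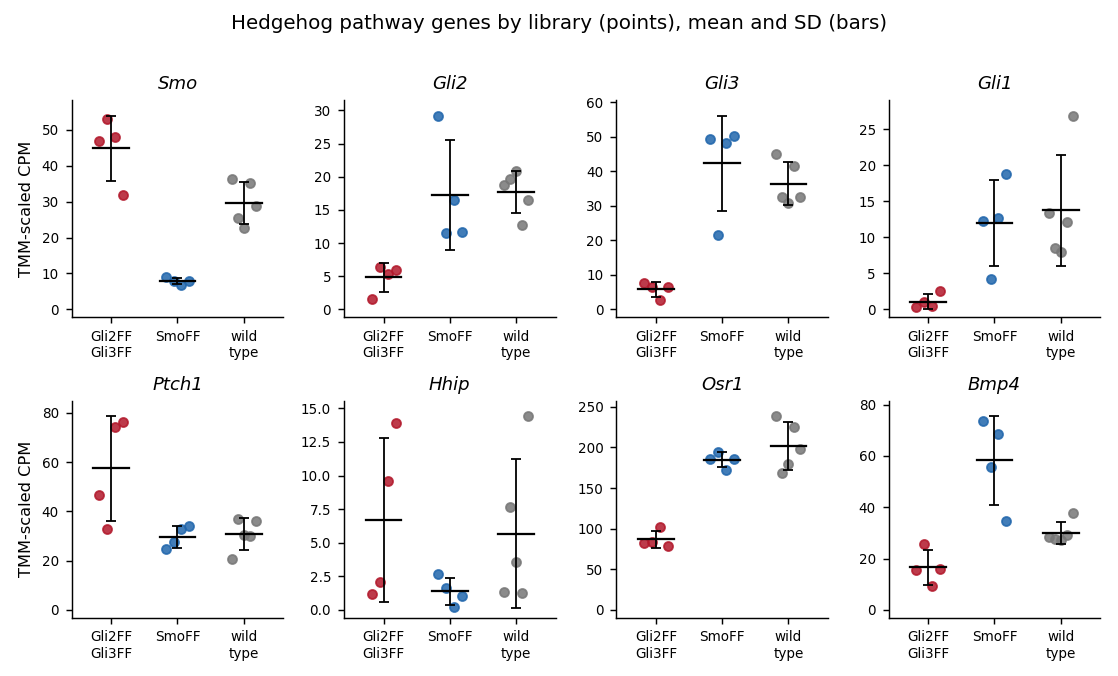
TMM-scaled CPM (y axes, from 0) of 8 Hedgehog pathway genes in Gli2FFGli3FF (n = 4), SmoFF (n = 4) and wild type (n = 5) libraries, 1 point per library, with a line at the mean and a bar of 1 SD. Gli2, Gli3, Gli1, Osr1 and Bmp4 lie lower in each Gli2FFGli3FF library than in any SmoFF library, Smo lies higher, and Ptch1 and Hhip overlap.

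Among ligands, receptors and transducers, 1 of 25 tested genes was higher (Smo) and 5 were lower, with a median log2 change of −0.40 against −0.27 over all genes. With GC and length offsets the balance turned round, to 4 higher and 2 lower with a median of 0.05, and with the ribosomal RNA covariate 1 was higher and 1 lower. Arrb2, which encodes a beta-arrestin, stood at 3.58, 3.63, 6.14 and 4.05 CPM in Gli2FFGli3FF and 24.9, 16.5, 23.9 and 23.3 CPM in SmoFF, with every Gli2FFGli3FF library lower (log2 change −2.35, SE 0.47, adjusted p = 0.00135). It did not pass with the ribosomal RNA covariate (−1.92, adjusted p = 0.199). Disp1, needed for ligand release, and Prkaca, the catalytic subunit of protein kinase A that primes Gli proteins for cutting, were lower by smaller amounts (−1.28 and −0.87 on the log2 scale). Disp1 lost its call without any 1 of the 4 Gli2FFGli3FF libraries or SmoFF replicate 1, 3 or 4 (log2 changes −1.37 to −1.16), and Prkaca without any 1 of the 4 Gli2FFGli3FF libraries or SmoFF replicate 1 or 2 (−0.89 to −0.71). The count of lower transducer genes was accordingly 3 without any 1 of the 4 Gli2FFGli3FF libraries, and 2 members were higher without Gli2FFGli3FF replicate 4. The coreceptor genes Gas1, Cdon and Boc had 295.5 to 456.6, 112.6 to 194.5 and 29.5 to 54.8 CPM in Gli2FFGli3FF and 290.2 to 341.4, 89.6 to 164.6 and 31.5 to 83.7 CPM in SmoFF, and their groups overlapped. Gas1 (log2 change 0.93, adjusted p = 0.0259) and Cdon (0.62, adjusted p = 0.0459) passed the test with GC and length offsets. Sufu, the cytoplasmic inhibitor of Gli proteins, Kif7, a ciliary kinesin, and the ciliary genes Evc and Evc2 did not pass the test either.

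Genes of the BMP and TGF-beta pathways went both ways, with 3 higher and 6 lower of 31, the higher share being near that over all genes. Of the 31, 5 were higher and 4 lower with GC and length offsets, and with the ribosomal RNA covariate none was called in either direction. The lower count was 3 without Gli2FFGli3FF replicate 1. Grem1, a secreted BMP antagonist, stood at 45.1, 46.5, 87.5 and 24.6 CPM in Gli2FFGli3FF, against 10.9, 11.1, 5.93 and 8.55 CPM in SmoFF. Its level was higher in all Gli2FFGli3FF libraries (log2 change 2.48, SE 0.58, adjusted p = 0.00492), and SmoFF lay in the range of wild type (7.98 ± 4.35 CPM, SD, n = 5). The ligand gene Bmp6 stood at 0.337, 0.718, 0 and 0 CPM in Gli2FFGli3FF and 11.2, 13.5, 21.3 and 9.49 CPM in SmoFF, and was near 0 in each Gli2FFGli3FF library (log2 change −5.61, SE 1.33, adjusted p = 0.00556). It was near 0 in both Gli3FF libraries as well, which carry the floxed Gli3 allele alone (0.0397 and 0.666 CPM), and in 2 of the 3 Ctnnb1FF libraries (0 and 0.0784 CPM). Ltbp1, which stores latent TGF-beta in the matrix, had 29.2 to 100.1 CPM in Gli2FFGli3FF and 126.3 to 228.3 CPM in SmoFF and fell with no overlap (log2 change −1.45, SE 0.32, adjusted p = 0.00283).

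Among growth factors, Igf1 stood at 794.8, 1447, 1909 and 1697 CPM in Gli2FFGli3FF, against 515.7, 489.5, 471.9 and 699.7 CPM in SmoFF. All 4 Gli2FFGli3FF libraries were higher (log2 change 1.43, SE 0.21, adjusted p = 6.88e-05). Igfbp5 and Igfbp7, which bind insulin-like growth factors, fell. Igfbp5 stood at 132.5, 103.5, 144.5 and 191.4 CPM in Gli2FFGli3FF and 769.9, 480.9, 459.2 and 451 CPM in SmoFF (log2 change −1.92, SE 0.38, adjusted p = 0.00111). SmoFF replicate 1 was the highest, wild type had 201.6 ± 30.7 CPM (SD, n = 5), and Igfbp5 was called higher in SmoFF against wild type (log2 change 1.42, adjusted p = 0.0366). Igfbp7 stood at 575.9 to 850.5 CPM in Gli2FFGli3FF and 1335 to 1694 CPM in SmoFF (log2 change −1.23, SE 0.25, adjusted p = 0.00157). Dact2, an inhibitor of Wnt and TGF-beta signalling that binds Dishevelled, stood at 3.71, 1.51, 2.46 and 0.571 CPM in Gli2FFGli3FF, against 54.1, 21.6, 92.1 and 62.8 CPM in SmoFF. The fall (log2 change −4.82, SE 0.73, adjusted p = 7.82e-05) was seen against the wild type level of 43.6 ± 15.6 CPM as well (SD, n = 5, log2 change −4.42, adjusted p = 0.000144), where SmoFF was not called. Dact2 was also low in other genotypes, with means of 0.628 CPM in Ctnnb1FF, 4.61 CPM in Gli2FF, 0.0199 CPM in Gli3FF and 8.18 CPM in SmoM2.

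Genes of adventitial fibroblasts, the Pi16+ population at the outer edge of vessels and ducts, fell more often than they rose in Gli2FFGli3FF. Of 25 tested, 11 fell and 3 rose, and the median log2 change was −0.68. Pi16, a peptidase inhibitor, stood at 155.6, 116.9, 272.9 and 196.2 CPM in Gli2FFGli3FF and 975.4, 710.9, 1570 and 991 CPM in SmoFF. The Gli2FFGli3FF libraries lay lower without overlap (log2 change −2.52, SE 0.39, adjusted p = 8.81e-05), and SmoFF was near wild type at 1178 ± 167.5 CPM (SD, n = 5). Cd248, the surface protein endosialin, stood at 88.5, 126.1, 200.1 and 132.7 CPM in Gli2FFGli3FF and 1637, 520.6, 951 and 1345 CPM in SmoFF (log2 change −3.02, SE 0.39, adjusted p = 1.34e-05). Gsn, the actin-severing protein gelsolin, stood at 1869, 1873, 2882 and 2981 CPM in Gli2FFGli3FF and 9585, 4687, 11460 and 7735 CPM in SmoFF. Both fell with the groups apart (log2 change −1.80, SE 0.27, adjusted p = 6.74e-05 for Gsn). Cd248 was also low in other genotypes, with means of 122.7 CPM in Ctnnb1FF, 183 CPM in Gli2FF and 157 CPM in Gli3FF. The same held for Pi16, with means of 379.8 CPM in Ctnnb1FF, 254.9 CPM in Gli2FF and 73.3 CPM in Gli3FF. Gsn had means of 3765, 2557 and 3489 CPM in these genotypes, against 7855 CPM in wild type. SmoM2 means were 560.7 CPM of Cd248, 602.8 CPM of Pi16 and 4122 CPM of Gsn. Pdpn, Clec3b, Cd34, Igfbp6, Anxa3, Dpp4, Ebf1 and Ebf2 were the other members called lower. Mgp, which encodes an inhibitor of calcification, went the other way at 729.8, 959, 1174 and 674.3 CPM in Gli2FFGli3FF and 213.8, 118.2, 161.5 and 204.8 CPM in SmoFF (log2 change 2.34, SE 0.27, adjusted p = 4.77e-06). With the ribosomal RNA share as a covariate 5 members were called lower and 1 higher.

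More contractile genes rose than fell. Of 24 myofibroblast and contractile genes, 9 rose and 4 fell, with a median log2 change of 0.59, and with the ribosomal RNA share as a covariate 3 were higher and 2 lower. Acta2, smooth muscle actin, stood at 100.8, 174.9, 277.8 and 155.4 CPM in Gli2FFGli3FF, against 4.11, 50.5, 9.95 and 13.5 CPM in SmoFF. SmoFF replicate 2 was the highest of its group and still lay under every Gli2FFGli3FF library (log2 change 3.18, SE 0.56, adjusted p = 0.000375). Ccn2, a matricellular protein induced by mechanical load and TGF-beta, stood at 14.8, 47.7, 31.7 and 40.99 CPM in Gli2FFGli3FF and 0.795, 3.02, 2.51 and 3.96 CPM in SmoFF. Wild type had 13.95 ± 9.11 CPM (SD, n = 5), so that every SmoFF library lay under and every Gli2FFGli3FF library over its mean (log2 change 3.71, SE 0.54, adjusted p = 4.81e-05). Myl9, a regulatory light chain of myosin, rose by 2.36 (SE 0.32, adjusted p = 2.09e-05) and Tpm2, a tropomyosin, by 1.77 (SE 0.28, adjusted p = 0.000105) on the log2 scale.

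Actn4, an actin crosslinker of non-muscle cells, stood at 48.4, 50.9, 40.6 and 59.8 CPM in Gli2FFGli3FF and 100.7, 74.5, 122.4 and 153.8 CPM in SmoFF and fell (log2 change −1.18, SE 0.19, adjusted p = 0.00017). Zyx, Csrp1 and Tns1 were the other members called lower, and 2 members in all were called lower without Gli2FFGli3FF replicate 1 or 3. Smooth muscle and pericyte markers summed to 457, 584, 933 and 771 CPM in Gli2FFGli3FF replicates 1 to 4 and to 415, 516, 513 and 360 CPM in SmoFF replicates 1 to 4. Of 16 tested, 4 were higher, of which Acta2, Tagln and Lmod1 are shared with the contractile list, and 1 was lower. Myh11, the smooth muscle myosin heavy chain that defines that cell type, stood at 0.0675, 79.96, 74.8 and 59.3 CPM in Gli2FFGli3FF and 3.05, 1.33, 0.916 and 0.7 CPM in SmoFF. Gli2FFGli3FF replicate 1 thus had next to no Myh11 while its Acta2 was at 100.8 CPM. The part of smooth muscle cells in the contractile genes was not tested.

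The fibrillar collagen genes Col1a1, Col1a2, Col3a1 and Col5a2 were higher in Gli2FFGli3FF. Of 38 tested genes of fibrillar matrix and small proteoglycans, 8 rose and 2 fell (Efemp1 and Ltbp4), and the median log2 change was 0.21. The count of lower genes was 0 without Gli2FFGli3FF replicate 1, 1 without Gli2FFGli3FF replicate 2 or 3 or SmoFF replicate 4, and 5 without SmoFF replicate 2. Col3a1, the chain of type III collagen, stood at 6793, 8500, 9018 and 8120 CPM in Gli2FFGli3FF and 2774, 2376, 2175 and 4181 CPM in SmoFF. All Gli2FFGli3FF libraries lay higher (log2 change 1.50, SE 0.21, adjusted p = 3.67e-05), and wild type was at 6337 ± 1790 CPM (SD, n = 5). Col1a2 stood at 2802, 2904, 2830 and 3303 CPM in Gli2FFGli3FF and 1536, 1499, 1479 and 2203 CPM in SmoFF (log2 change 0.82, SE 0.16, adjusted p = 0.000825). Against wild type, Col3a1 and Col1a2 were called lower in SmoFF (log2 changes −1.14 and −0.96, adjusted p = 0.00442 and 0.00133) and not called in Gli2FFGli3FF (0.36 and −0.15, adjusted p = 0.196 and 0.503). Col5a2, a chain of type V collagen, and Lum, the small proteoglycan lumican, rose by 1.28 and 1.17 on the log2 scale against SmoFF (adjusted p = 5e-05 and 0.000371). With GC and length offsets 16 of the 38 rose and 1 fell, and with the ribosomal RNA share as a covariate 1 rose and 1 fell.

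Of 19 tested basement membrane genes 3 rose (Col4a5, Agrn and Col4a6) and 2 fell (Lama2 and Hspg2), with a median log2 change of −0.14. The share that fell was near that over all genes. With GC and length offsets 8 rose and 0 fell, and with the ribosomal RNA covariate 1 rose and 0 fell. Leaving out 1 library gave 1 to 4 higher and 0 to 6 lower. Col4a5, a chain of type IV collagen, stood at 111.5, 125, 102.9 and 108.8 CPM in Gli2FFGli3FF and 23.3, 20.7, 18.8 and 19.8 CPM in SmoFF. The groups were far apart for their spread (log2 change 2.44, SE 0.22, adjusted p = 1.39e-07), and wild type lay between them at 50.9 ± 6.27 CPM (SD, n = 5). Lox, the enzyme that crosslinks collagen and elastin, stood at 265.7, 282.1, 351.1 and 278.3 CPM in Gli2FFGli3FF and 64.7, 47.2, 165.4 and 73.01 CPM in SmoFF, with SmoFF replicate 3 the nearest to the Gli2FFGli3FF range (log2 change 1.75, SE 0.29, adjusted p = 0.000219). Its relative Loxl3 went the other way, at 6.88 to 15.3 CPM in Gli2FFGli3FF and 19.3 to 48.02 CPM in SmoFF (log2 change −1.68, SE 0.30, adjusted p = 0.000495). Pcolce2, an enhancer of procollagen cleavage, fell by 1.31 on the log2 scale (SE 0.30, adjusted p = 0.00446). In all, 4 of 21 genes of collagen processing rose and 6 fell, and 2 rose without Gli2FFGli3FF replicate 2 or without SmoFF replicate 2 or 3. With GC and length offsets 7 rose and 2 fell, and with the ribosomal RNA covariate 0 were higher and 2 lower. Of the metalloprotease inhibitors, Timp1 stood at 951.7, 586.6, 570.7 and 260.5 CPM in Gli2FFGli3FF and 119.1, 166, 38.6 and 65.5 CPM in SmoFF and rose (log2 change 2.61, SE 0.48, adjusted p = 0.000589). Timp2 stood at 861.5, 695.6, 934.8 and 1013 CPM in Gli2FFGli3FF and 1905, 1749, 2281 and 2069 CPM in SmoFF and fell (log2 change −1.19, SE 0.20, adjusted p = 0.000181). Both had groups that did not overlap.

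**Figure D2:**
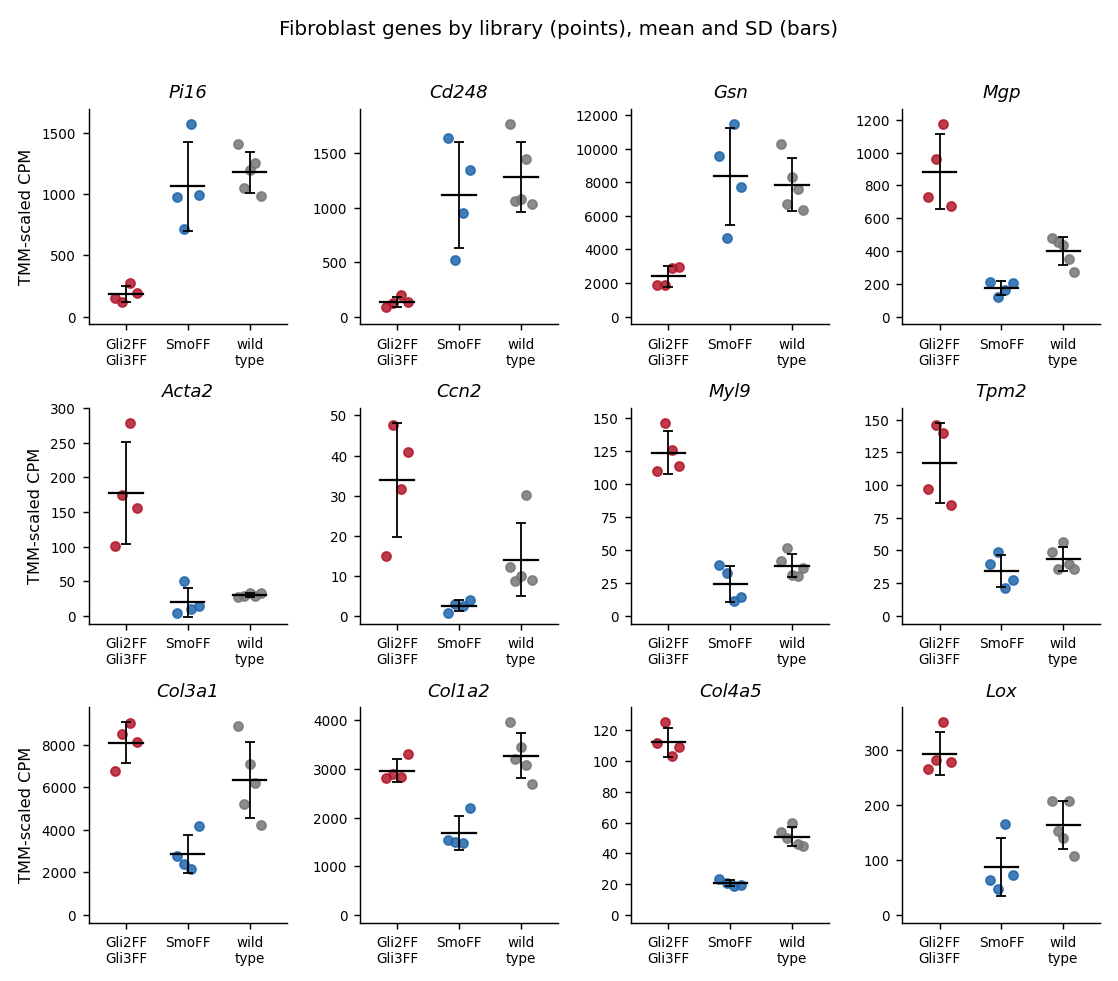
TMM-scaled CPM (y axes, from 0) of 12 fibroblast genes in Gli2FFGli3FF (n = 4), SmoFF (n = 4) and wild type (n = 5) libraries, 1 point per library, with a line at the mean and a bar of 1 SD. Pi16, Cd248 and Gsn lie lower in every Gli2FFGli3FF library than in any SmoFF library, and the other 9 genes lie higher.

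Several chemokine and complement genes were higher. Of 24 chemokine and cytokine genes 8 rose and 0 fell by edgeR, with a median log2 change of 1.04, while 2 had an unadjusted p under 0.05 in the lower direction and 0 were lower by DESeq2 or limma voom. A single member was lower without Gli2FFGli3FF replicate 3 or SmoFF replicate 2. The count that rose was 4 without SmoFF replicate 3, 4 without SmoFF replicate 4, 4 with GC and length offsets and 1 with the ribosomal RNA share as a covariate. Cxcl1, a neutrophil attractant, stood at 509.1, 257.9, 131.9 and 319.7 CPM in Gli2FFGli3FF and 85.5, 85.2, 40.1 and 92.4 CPM in SmoFF (log2 change 2.01, SE 0.36, adjusted p = 0.000474). Cxcl12, the stromal ligand of Cxcr4, stood at 680.7, 744.1, 1945 and 1679 CPM in Gli2FFGli3FF and 572, 506.1, 609 and 481.3 CPM in SmoFF. Replicates 3 and 4 of Gli2FFGli3FF were the highest, and the groups did not overlap (log2 change 1.22, SE 0.26, adjusted p = 0.00227). Immune markers summed to 582, 134, 91.0 and 214 CPM in Gli2FFGli3FF replicates 1 to 4 and to 277, 69.3, 16.6 and 22.9 CPM in SmoFF replicates 1 to 4, and their part in these genes and in the complement and interferon genes was not tested.

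Of 22 complement genes 6 rose and 2 fell, and 1 fell without any 1 of the 4 Gli2FFGli3FF libraries or SmoFF replicate 2, while with the ribosomal RNA covariate 1 rose and 1 fell. C3, the central complement component, stood at 6644, 8956, 14110 and 13240 CPM in Gli2FFGli3FF and 3882, 3081, 4342 and 4353 CPM in SmoFF, and every Gli2FFGli3FF library was higher (log2 change 1.46, SE 0.21, adjusted p = 4.63e-05). C1ra, a protease of the classical pathway, rose by 1.03 on the log2 scale (adjusted p = 0.000659). C1qtnf1, a C1q-related secreted protein, fell by 1.50 (SE 0.29, adjusted p = 0.000901). Of 36 interferon response genes 5 rose and 2 fell, 0 and 1 did with the ribosomal RNA covariate, 3 rose without Gli2FFGli3FF replicate 2 or SmoFF replicate 3 or 4, and 1 fell without any 1 of the 4 Gli2FFGli3FF libraries or SmoFF replicate 1 or 3. Bst2, the membrane protein tetherin, stood at 201, 162, 159.1 and 131.8 CPM in Gli2FFGli3FF and 56.6, 45.6, 56.7 and 42.1 CPM in SmoFF (log2 change 1.70, SE 0.25, adjusted p = 4.99e-05), and Ifi27l2a rose by 2.04 on the log2 scale (adjusted p = 0.000187). Irf1, the transcription factor of that response, fell by 1.13 (SE 0.20, adjusted p = 0.000527). In the complement and interferon lists the share that fell was near or under the 8.83% over all genes tested.

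B2m and H2-T22, antigen presentation genes of MHC class I, went opposite ways. B2m, the light chain of class I, stood at 3486, 3426, 3730 and 2906 CPM in Gli2FFGli3FF and 940.5, 1039, 768.8 and 514.9 CPM in SmoFF and rose (log2 change 2.05, SE 0.25, adjusted p = 7.36e-06). Its mean was 4672 CPM in Ctnnb1FF, and 1152 and 1369 CPM in Gli2FF and Gli3FF. H2-T22, a non-classical heavy chain, stood at 10.7, 6.99, 3.13 and 5.77 CPM in Gli2FFGli3FF and 27.2, 21.01, 29.98 and 23.9 CPM in SmoFF and fell (log2 change −1.94, SE 0.30, adjusted p = 8.9e-05). H2 heavy chain genes resemble each other closely, so that their reads may be shared out between them and the value is uncertain. Of 18 genes of MHC class I and class II 1 rose and 5 fell (0 and 1 with the ribosomal RNA covariate), and the 5 include Ciita, the switch of class II expression, at 0 to 0.0755 CPM in Gli2FFGli3FF and 0.583 to 3.55 CPM in SmoFF. The share of this list that rose was under the 7.68% over all genes tested.

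Most genes of oxidative phosphorylation and of cytosolic ribosomal proteins were higher. Of 36 nuclear genes of oxidative phosphorylation 22 rose and 1 fell, with a median log2 change of 0.95, and of 51 ribosomal protein genes 30 rose and 2 fell, with a median of 0.75. The 1 nuclear gene that fell, Atp5a1, was not called without Gli2FFGli3FF replicate 2 or 3, and 2 fell without replicate 1. Cox6c, a subunit of cytochrome oxidase, stood at 368.1, 471.2, 496.4 and 416.8 CPM in Gli2FFGli3FF and 68.9, 100.4, 38.4 and 45.7 CPM in SmoFF (log2 change 2.79, SE 0.26, adjusted p = 2.54e-07). Ndufb3 of complex I and Uqcrq of complex III rose by 2.08 and 2.08 on the log2 scale (adjusted p = 1.31e-05 and 1.48e-05). Rps27, a protein of the small ribosomal subunit, stood at 258.6, 280.9, 248.9 and 305.6 CPM in Gli2FFGli3FF and 38.2, 51.5, 35.4 and 25.5 CPM in SmoFF, and Rpl24 rose by 2.03 (adjusted p = 1.34e-06). The groups did not overlap for any of these 5 genes. Cox6c and Rps27 were also high in the Ctnnb1FF libraries, with means of 534.5 and 406.7 CPM. Their Gli2FF and Gli3FF means lay between those of SmoFF and Gli2FFGli3FF.

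The counts in these lists depended on how library makeup was treated. With GC and length offsets 20 of the nuclear and 31 of the ribosomal protein genes rose, and with the ribosomal RNA share as a covariate 2 and 3 did. Of 13 genes encoded in the mitochondrial genome 9 rose and 0 fell by edgeR, DESeq2 and limma voom had 0 lower, 0 had an unadjusted p under 0.05 in that direction, 5 rose without SmoFF replicate 3 or without SmoFF replicate 4, 1 rose with GC and length offsets and 0 rose with the covariate. mt-Co1 stood at 4706, 4317, 4382 and 3262 CPM in Gli2FFGli3FF and 2134, 2041, 1341 and 1354 CPM in SmoFF (log2 change 1.28, SE 0.24, adjusted p = 0.000711).

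**Figure D3:**
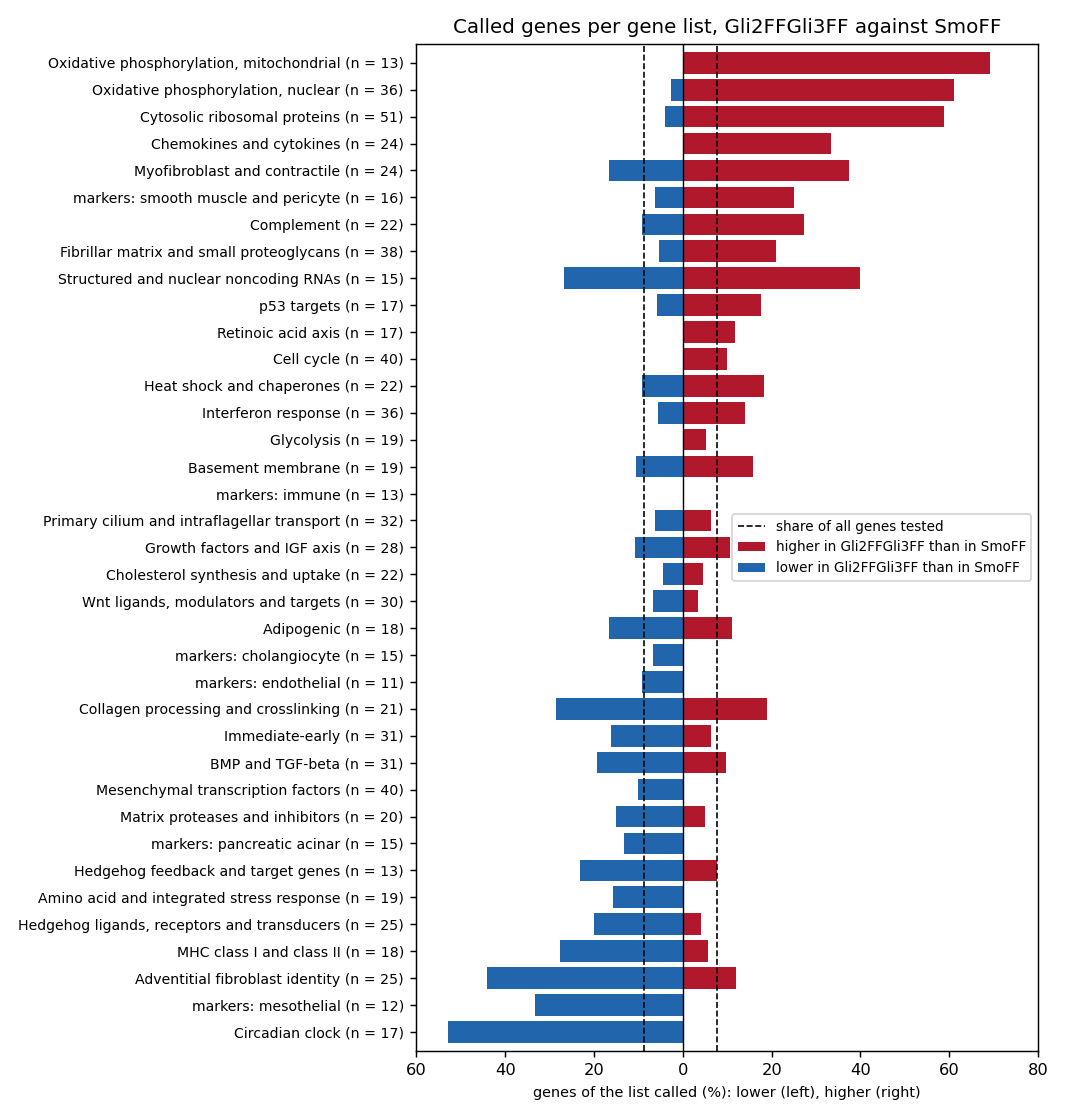
Share of tested genes called higher (red, to the right) and lower (blue, to the left) in Gli2FFGli3FF against SmoFF, in percent on the x axis, for gene lists with at least 10 tested members, whose number stands beside the name. Dashed lines mark the shares over all genes tested, 7.68% higher and 8.83% lower. Oxidative phosphorylation and ribosomal protein genes stand at the top and circadian clock genes at the bottom.

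Calls moved with base composition and transcript length across all protein-coding genes. In the quintile of genes with the lowest GC content 13.7% were higher and 3.73% lower, with a median log2 change of 0.20. In the quintile with the highest GC content 3.56% were higher and 17.3% lower, with a median of −0.68. Of the shortest quintile, with transcripts up to 1903 bases, 16.7% were higher, against 5.73 to 6.51% in the other quintiles. Pseudogenes had 454 higher and 149 lower of 3300 tested, and other noncoding genes 108 higher and 539 lower of 5115. With GC and length offsets 1674 genes were higher and 1948 lower, of which 1295 and 1461 were called in the same direction without them.

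**Figure D4:**
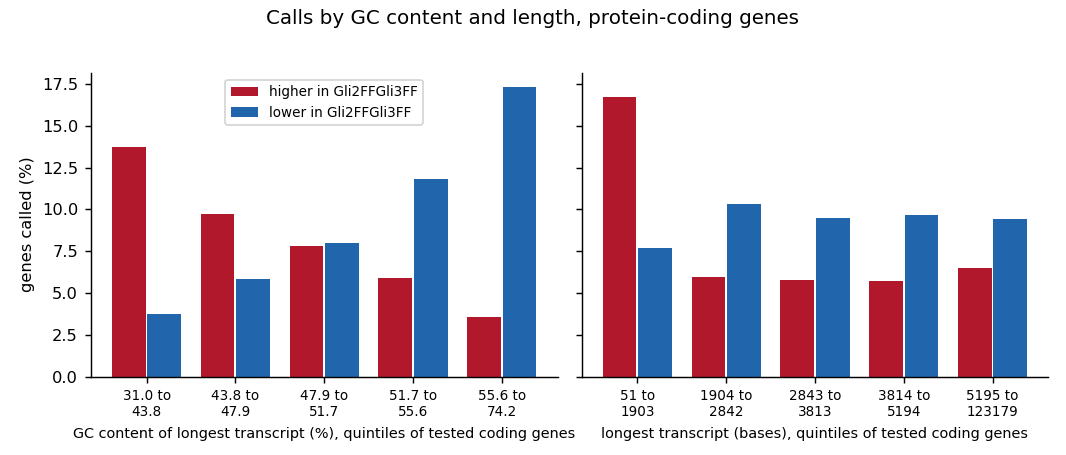
Share of tested protein-coding genes called higher (red) and lower (blue) in Gli2FFGli3FF against SmoFF (y axis, percent), by quintiles of GC content (left) and of length (right) of the longest transcript (x axes). The share called higher declines from 13.7 to 3.56% with rising GC content while the share called lower climbs from 3.73 to 17.3%, and the shortest quintile has the largest share called higher.

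Structured and nuclear noncoding RNAs split by kind. Of 15 tested, 6 rose and 4 fell. Rn7sk, the 7SK RNA that holds back transcription elongation, stood at 758.7, 913.1, 812.4 and 797.3 CPM in Gli2FFGli3FF and 43.5, 64.4, 38.9 and 40.8 CPM in SmoFF (log2 change 4.13, SE 0.31, adjusted p = 9.35e-09). Rn7s1, a 7SL RNA of the signal recognition particle, rose by 5.01 (SE 0.42, adjusted p = 4.01e-08), and as 7SL has close copies its value is uncertain. Malat1, a long RNA of nuclear speckles, stood at 594.2, 601.8, 331.9 and 607.3 CPM in Gli2FFGli3FF and 4333, 7421, 10280 and 10640 CPM in SmoFF, lower in each Gli2FFGli3FF library (log2 change −3.94, SE 0.58, adjusted p = 5.84e-05). The Ctnnb1FF libraries had means of 2007 CPM of Rn7sk and 528.6 CPM of Malat1, whereas Gli2FF had 132.4 and 8515 CPM. Meg3 and Kcnq1ot1, long noncoding RNAs of imprinted loci, fell by 3.80 and 3.75 on the log2 scale (adjusted p = 0.000257 and 0.00382). With the ribosomal RNA share as a covariate Malat1, Meg3 and Kcnq1ot1 had log2 changes of −1.54, −1.51 and 0.15 and none passed the test. Kcnq1ot1 is antisense to Kcnq1, and its value is uncertain because the strand setting of the counting is not known here.

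Circadian clock genes were lower in Gli2FFGli3FF than in SmoFF, but for several of them it was SmoFF that stood apart from wild type. Of 17 tested, 9 fell by edgeR, 10 were lower by DESeq2, 6 by limma voom and 4 with the ribosomal RNA share as a covariate. By edgeR, DESeq2 or limma voom 0 were higher, 0 had an unadjusted p under 0.05 in the higher direction, and the median log2 change was −1.65. The labels give no time of day for any sample. Dbp, a PAR bZIP factor driven directly by the clock, stood at 0, 0.0378, 0.491 and 0 CPM in Gli2FFGli3FF, against 115.5, 63.2, 4.18 and 2.37 CPM in SmoFF. SmoFF replicates 1 and 2 were high, replicates 3 and 4 were low and still above each Gli2FFGli3FF library (log2 change −8.48, SE 1.27, adjusted p = 6.76e-05). Its relatives Hlf and Tef stood at 2.23, 1.17, 2.33 and 2.74 and 9.85, 2.83, 9.33 and 6.45 CPM in Gli2FFGli3FF and at 23.8, 23.9, 15.7 and 6.38 and 61.2, 39.8, 30.3 and 13.1 CPM in SmoFF. Both fell without overlap (−3.04 and −2.35 on the log2 scale, adjusted p = 0.000439 and 0.00226). Wild type had 0.903 ± 0.587 CPM of Dbp, 2.28 ± 0.492 CPM of Hlf and 8.43 ± 1.56 CPM of Tef (SD, n = 5). Against wild type these 3 genes were called higher in SmoFF (log2 changes 5.66, 2.93 and 2.10, adjusted p = 0.00287, 0.00287 and 0.0188) and were not called in Gli2FFGli3FF (−2.82, −0.11 and −0.25, adjusted p = 0.0848, 0.904 and 0.738). SmoFF was not alone in this, as Gli3FF had means of 29.1 CPM of Dbp and 58.01 CPM of Hlf. In Ctnnb1FF, Gli2FF and SmoM2 the means were 3.86, 1.71 and 2.29 CPM of Dbp and 2.89, 7.02 and 2.59 CPM of Hlf.

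Nr1d1, the nuclear receptor that represses Arntl, stood at 24.5, 11.6, 16.4 and 11.4 CPM in Gli2FFGli3FF and 417.4, 228, 8.64 and 19.1 CPM in SmoFF. SmoFF replicates 1 and 2 were high, replicate 4 lay among the Gli2FFGli3FF values and replicate 3 under them. Nr1d1 was called lower (log2 change −3.40, SE 0.71, adjusted p = 0.00196), and with SmoFF replicates 3 and 4 alone its log2 change was 0.18 (adjusted p = 0.78). Arntl, the activator of the clock, had the opposite order within SmoFF, at 4.68, 3.55, 44.95 and 36.9 CPM in its replicates 1 to 4, and stood at 21.3, 23.6, 17 and 28.4 CPM in Gli2FFGli3FF. Per3, a repressor of the clock, fell by 3.71 (SE 0.75, adjusted p = 0.00151) and was lower in each Gli2FFGli3FF library than in any SmoFF library. Gli3FF had means of 280.6 CPM of Nr1d1 and 65.4 CPM of Per3, against wild type means of 49.4 and 6.31 CPM.

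Several clock promoters hold the E-box to which Arntl and Clock bind, CACGTG, which reads the same on both strands. It lay within 250 bases before the start in 5 of the 14 clock genes matched to RefSeq promoters, a gene being counted where any of its windows holds one. Of these, Ciart, Per1 and Tef were called lower in Gli2FFGli3FF than in SmoFF, and Bhlhe41 and Cry1 were not called. The E-box lay in 6.02% of 32851 single promoter windows. Stretches of the promoters of Ciart, a repressor with 3 E-boxes, and of Tef, with 1 E-box before each of its annotated starts, are shown 5′ to 3′ with the E-box in capitals, because both genes were lower in Gli2FFGli3FF than in SmoFF (RefSeq, GRCm38.p6, chr3:95882247-95882364 on the minus strand, chr15:81802526-81802571 and chr15:81811256-81811301 on the plus strand).
Ciart: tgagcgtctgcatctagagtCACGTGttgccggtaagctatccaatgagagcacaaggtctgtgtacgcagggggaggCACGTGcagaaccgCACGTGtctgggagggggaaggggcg
Tef, upstream start: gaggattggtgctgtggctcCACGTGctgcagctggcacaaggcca
Tef, downstream start: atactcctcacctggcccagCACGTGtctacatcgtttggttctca
Ciart had 0 counts in all 4 Gli2FFGli3FF libraries, against 2.03, 1.51, 1.59 and 0.0777 CPM in SmoFF, so that it was at least 32.6-fold lower by a floor of 3 counts over the Gli2FFGli3FF libraries. Its adjusted p was 0.0358 over all libraries and 0.0514 to 0.0794 without any 1 of the 4 Gli2FFGli3FF libraries or SmoFF replicate 1 or 3. No E-box was found in these windows of Dbp, Hlf, Nr1d1 and Per3, which says nothing about sites elsewhere. A scan of 300-base windows for the Gli motif GACCACCCA on both strands found it in 0 of 29 Hedgehog list genes. That motif lay in only 0.253% of all windows, so that 0 of 29 decides nothing. The windows are described only by their letters, and binding was not measured.

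**Figure D5:**
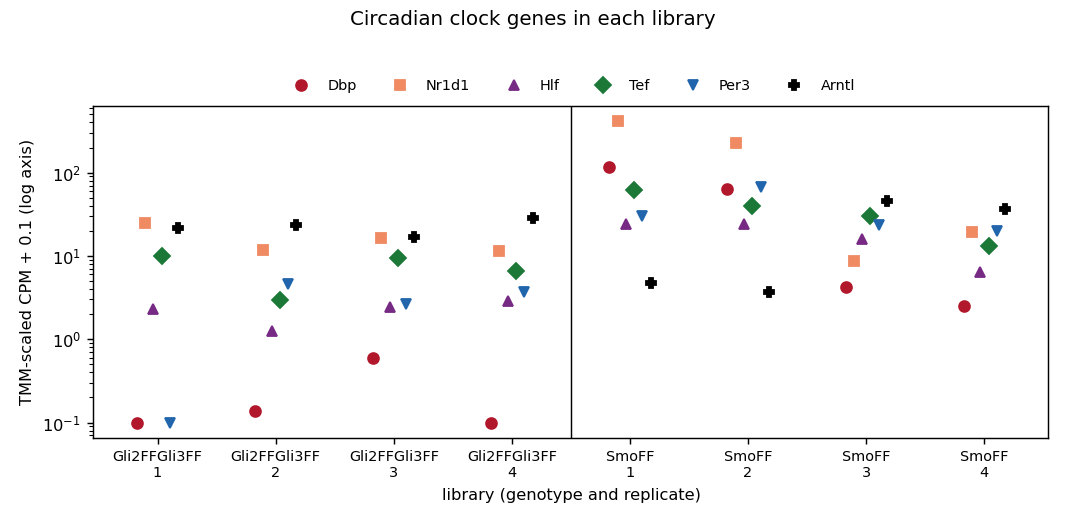
TMM-scaled CPM plus 0.1 (log y axis) of 6 clock genes in each Gli2FFGli3FF library (left) and SmoFF library (right), 1 symbol per gene. Dbp and Nr1d1 are high and Arntl is low in SmoFF replicates 1 and 2, while Nr1d1 of SmoFF replicate 4 lies among the Gli2FFGli3FF values and that of replicate 3 under them.

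The strongest single change by its adjusted p was at a locus with near-identical copies. Rps2, a protein of the small ribosomal subunit, stood at 37.04, 30.2, 28.4 and 35.5 CPM in Gli2FFGli3FF and 522.6, 430.3, 381.7 and 379.8 CPM in SmoFF (log2 change −3.71, SE 0.20, adjusted p = 1.15e-10). Rps2-ps13, a processed pseudogene on chromosome X, went the other way, at 161.6, 153.8, 151.3 and 146.2 CPM in Gli2FFGli3FF and 11.5, 13.99, 8.24 and 7.66 CPM in SmoFF (log2 change 3.89, SE 0.26, adjusted p = 1.57e-09). Rps2-ps13 was looked up after the values of Rps2 were seen. The 882 coding bases of Rps2 (GENCODE M21) and the 882 bases of Rps2-ps13 differ at 7 positions, an identity of 99.2%, with a longest identical run of 302 bases. Coding bases 10 to 84 are given because they show how little tells reads of the copies apart. Capitals mark the 2 differing bases (GRCm38, plus strands, chr17:24720285-24720359 and chrX:52898597-52898671).
Rps2: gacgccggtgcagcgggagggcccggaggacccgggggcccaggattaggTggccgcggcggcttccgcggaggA
Rps2-ps13: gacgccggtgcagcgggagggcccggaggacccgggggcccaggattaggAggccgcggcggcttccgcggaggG
Summed over Rps2 and the 12 pseudogene copies that the files list, the level was 263 to 310 CPM in Gli2FFGli3FF and 425 to 583 CPM in SmoFF. The values of Rps2 and of its copies are uncertain, since how the authors' counting assigned reads that match several loci is not given in the sources used here.

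Among other abundant genes with the largest falls, Gnas, the stimulatory G protein alpha subunit whose cyclic AMP signal activates protein kinase A, stood at 1.42, 2.38, 2.58 and 2.23 CPM in Gli2FFGli3FF and 82.6, 40.6, 48.5 and 54.8 CPM in SmoFF (log2 change −4.71, SE 0.47, adjusted p = 6.15e-07). Its locus holds several overlapping transcripts on both strands, and its value is uncertain for that reason. Pcsk6, a proprotein convertase that matures TGF-beta family ligands, stood at 11.9, 1.77, 3.75 and 4.97 CPM in Gli2FFGli3FF and 136.4, 73.6, 83.1 and 62.5 CPM in SmoFF (log2 change −4.0, SE 0.69, adjusted p = 0.000301). Smpd3, a neutral sphingomyelinase, stood at 3.1, 7.18, 1.47 and 13.6 CPM in Gli2FFGli3FF and 108.6, 109.7, 58.5 and 83.7 CPM in SmoFF, with wild type between them at 28.6 ± 10.6 CPM (SD, n = 5). All 3 had groups that did not overlap, which the rule for naming these genes required. Smpd3 fell by 3.82 on the log2 scale (adjusted p = 0.00204). Nphs1, the junction protein nephrin, Efhd1, a mitochondrial calcium-binding protein, and Ahnak2, a large scaffold protein, fell by 3.64, 3.71 and 3.32 (adjusted p = 2.65e-06, 0.00848 and 1.07e-09).

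Among the largest rises, Clca3a2, a chloride channel regulator, stood at 113.8, 188.8, 46.7 and 58.6 CPM in Gli2FFGli3FF and 1.19, 6.15, 0 and 6.22 CPM in SmoFF (log2 change 4.90, SE 1.28, adjusted p = 0.0114). A2m, the protease inhibitor alpha-2-macroglobulin, stood at 13.6, 60.8, 88.5 and 34.8 CPM in Gli2FFGli3FF and 9.09, 1.57, 2.91 and 7.97 CPM in SmoFF (log2 change 3.20, SE 0.71, adjusted p = 0.00318). The lowest Gli2FFGli3FF library was above the highest SmoFF library in both genes, as the rule for naming them required. Lars2, the leucyl-tRNA synthetase of mitochondria, stood at 7397 to 13910 CPM in Gli2FFGli3FF and 347 to 1358 CPM in SmoFF, a log2 change of 3.91 (SE 0.43) that was 2.06 with the ribosomal RNA share as a covariate. Whether all reads counted to Lars2 stem from its messenger RNA was not tested, and its value is uncertain. Serinc3, a membrane protein that incorporates serine into lipids, rose by 2.74, Ost4, a subunit of the oligosaccharyltransferase, by 3.04, and Clec2d, a C-type lectin, by 3.08 on the log2 scale (adjusted p = 9.35e-09, 2.15e-08 and 3.09e-06).

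A few genes were present in one genotype and nearly absent in the other. They were chosen after their values were seen, among the genes called in all settings. Mgarp, a mitochondrial protein gene, stood at 6.75, 6.005, 11.7 and 13.9 CPM in Gli2FFGli3FF and had 0 counts in all 4 SmoFF libraries. It was at least 343-fold higher in Gli2FFGli3FF by a floor of 3 counts over the SmoFF libraries, and wild type had 6.51 ± 3.02 CPM (SD, n = 5). Trim12a, of an antiviral gene family, stood at 20.04, 15.3, 9.15 and 17.6 CPM in Gli2FFGli3FF and 0.265, 0.444, 0.199 and 0.117 CPM in SmoFF (log2 change 5.87, SE 0.48, adjusted p = 2.49e-08), with 11.02 ± 3.19 CPM in wild type (SD, n = 5). Serpina3f, a protease inhibitor, had 4.22 to 7.33 CPM in Gli2FFGli3FF, 0.0398 to 0.177 CPM in SmoFF and 2.12 ± 1.45 CPM in wild type (SD, n = 5), and its family of close copies makes the value uncertain. All 3 genes were called lower in SmoFF against wild type (adjusted p = 4.2e-05, 3.91e-07 and 0.00321) and were not called in Gli2FFGli3FF against wild type (adjusted p = 0.545, 0.326 and 0.103).

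In 2 other genes Gli2FFGli3FF stood apart from wild type. Mrap2, an accessory protein of melanocortin receptors, stood at 8.63, 38.7, 3.93 and 8.79 CPM in Gli2FFGli3FF and 0, 0.533, 0 and 0 CPM in SmoFF, with 0.125 ± 0.265 CPM in wild type (SD, n = 5). Jdp2, a repressor of AP-1, stood at 10.9, 5.29, 12.4 and 9.93 CPM in Gli2FFGli3FF and 0.75, 0.533, 0.119 and 0.467 CPM in SmoFF, with 0.993 ± 0.635 CPM in wild type (SD, n = 5). Both rose against SmoFF (log2 changes 6.60 and 4.35, adjusted p = 0.00091 and 9.25e-05) and against wild type (6.98 and 3.27, adjusted p = 0.000278 and 0.000431).

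Some markers of mesothelium, the lining of the body cavity, were lower. Of 12 tested 4 were lower by edgeR, 4 by DESeq2, 3 by limma voom and 0 with the ribosomal RNA share as a covariate. By edgeR, DESeq2 or limma voom 0 were higher, with 0 at an unadjusted p under 0.05 in the higher direction. The lower count was 2 without Gli2FFGli3FF replicate 2 or 3, and the 12 summed to 508 to 1015 CPM in Gli2FFGli3FF and 714 to 2158 CPM in SmoFF. Upk3b, a uroplakin of mesothelium, stood at 29.5, 25.7, 19.1 and 20.9 CPM in Gli2FFGli3FF and 139.4, 250.5, 168.6 and 74.2 CPM in SmoFF (log2 change −2.73, SE 0.78, adjusted p = 0.019). Its adjusted p was 0.05 without Gli2FFGli3FF replicate 2 (log2 change −2.70) and 0.0595 without replicate 3 (−2.57). Muc16 and Krt19, a mucin and a keratin of mesothelial cells, fell by 5.26 and 3.13 on the log2 scale (adjusted p = 0.0154 and 0.00391), and SmoFF replicate 2 had the most of all 3. Slpi and Nkain4 of the same list had higher means in Gli2FFGli3FF (338.5 and 114.9 CPM) than in SmoFF (199.3 and 100.9 CPM). Their groups overlapped and neither was called. Cholangiocyte markers had 1 lower (Krt19) of 15 tested, and 2 without Gli2FFGli3FF replicate 3 or SmoFF replicate 1. Endothelial markers had 1 lower of 11. In the cholangiocyte and endothelial lists the share lower was near or under the 8.83% over all genes tested. Acinar markers had 2 lower of 15, 1 without Gli2FFGli3FF replicate 3 or SmoFF replicate 1 or 4, and 0 without Gli2FFGli3FF replicate 1, 2 or 4.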

How the data were processed

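Pdgfra-lineage mesenchymal cells of the mouse common bile duct were sorted, about 1000 per animal, and made into full-length cDNA libraries by a Smart-seq3 protocol, per the labels' protocols. The values are whole-number raw counts for each gene as the authors deposited them. The submitters' processing notes name mm10 as the build. Which aligner and counter were run, on which annotation and with what strand setting, is not given in the sources used here. No molecular identifiers were counted, and reads are not independent molecules.

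All 23 Pdgfra libraries entered 1 fit with genotype as the only term (R 4.3.3, edgeR 4.0.16, filterByExpr, TMM, glmQLFit and glmQLFTest), and a gene was called where its p after Benjamini-Hochberg adjustment was under 0.05. Nothing beyond the labels says how far replicates are independent, and p-values therefore reflect only the spread among these libraries. Gene types, GC content and length came from GENCODE M21, which matched 97.2% of genes tested, and promoters from RefSeq GRCm38.p6. Named genes were those of the Hedgehog lists, up to 12 with the largest change in each direction at a mean log2 CPM of at least 3 and with groups apart, and up to 4 called members per list with the smallest p. Others were chosen after their values were seen, and some genes under the rule are not reported here. The groups compared and the 40 gene lists were chosen with earlier results of these data known. Alternatives covered scaling, DESeq2 1.42.0, limma 3.58.1 voom, filters, covariates, GC and length offsets, thinning and leaving out libraries. The fits were tested on simulated data. The list of replication-dependent histones matched no symbol in the files.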

Additional observations from a re-analysis of the deposited data

Results flagged for a closer look

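In 22 of 246 sets of 4 libraries of a genotype, 1 library lay far from the other 3 by Dixon's 95% criterion, which chance meets in about 1 in 20 sets. Values are log2 CPM with a prior count of 2 unless said otherwise.

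In Gli2FFGli3FF, replicate 1 was low for Gli2 (0.71), Myh11 (−2.77) and Per3 (−3.66), and its summed acinar markers were high at 23.8 CPM. Replicate 2 was the 1 library with any Ciita (−2.69). Replicate 3 was high for Igfbp7 (9.73) and low for Malat1 (8.38) and Muc16 (−3.66).

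In SmoFF, replicate 1 was low for Evc2 (3.37) and Dnajb4 (4.53) and high for Igfbp5 (9.59) and Clec2d (4.03). Replicate 2 was low for Gli3 (4.44), Arrb2 (4.05) and Sufu (2.86), and was the 1 library with any Foxl1 (−0.94) or Mrap2 (−0.71). Replicate 3 was low for Cxcl1 (5.33) and Serinc3 (4.30). Replicate 4 was high for Col1a2 (11.11) and low for Tagln (−1.87) and Ciart (−2.67).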

How the results depend on the processing

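Of 97 called genes named with values, 43 kept their call and direction under all 26 alternatives. The ribosomal RNA share as a covariate moved most: 261 genes were higher and 233 lower, of which 190 and 219 were called in the same direction without it, and of the 97 named genes 45 kept, 51 lost and 1 reversed the call. That share separates the genotypes, so the covariate and the genotype cannot be fully told apart. Counts of lower genes were 1211 with the replicate block (8 libraries, 15878 genes tested, 1383 higher) and 1204 with protein-coding genes only, where fewer genes were tested. The replicate numbers were not taken as pairs. Libraries with the same number correlated at 0.0446, 0.133, 0.0679 and 0.0171, and those with different numbers at −0.129 to 0.168. These small values cannot decide whether the numbers pair the samples. Leaving out 1 library gave 1266 to 1815 higher and 1276 to 2210 lower genes, with the fewest higher genes without SmoFF replicate 3. With pairs of SmoFF libraries chosen after seeing the data, 1030 and 1285 genes were higher and lower with replicates 2 and 3, 1245 and 1422 with replicates 1 and 4, 1780 and 1994 with replicates 3 and 4, and 751 and 876 with replicates 1 and 2. DESeq2 called 2318 higher and 3140 lower. The higher genes were 46.5% of calls over all libraries and 56.7 to 57.9% without Gli2FFGli3FF replicate 1, 2 or 3.

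Among named genes called over all libraries or in the setting itself, log2 changes turned round for mt-Nd6 with GC and length offsets (−0.16), Kcnq1ot1 with the ribosomal RNA covariate (0.15), Nr1d1 with SmoFF replicates 3 and 4 only (0.18) and Xist with SmoFF replicates 2 and 3 only (10.13). Some genes called in neither fit changed sign too, such as Foxl1 with the ribosomal RNA covariate (1.61) and Evc with GC and length offsets (0.22). For these the cause was not tested. Genes with few counts, such as Ciart and Foxl1, are limited by depth.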

Other observations

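Some genes of stress responses were higher and some lower in Gli2FFGli3FF than in SmoFF. Dnajb4, a cochaperone, stood at 46.8, 82.2, 70.1 and 86.6 CPM in Gli2FFGli3FF and 23, 33.6, 31.9 and 32.1 CPM in SmoFF (log2 change 1.24, SE 0.25, adjusted p = 0.0015). Hspa1b, an inducible heat shock protein, stood at 39.1, 32.7, 56.4 and 51.04 CPM in Gli2FFGli3FF and 16.9, 8.2, 13.6 and 22.5 CPM in SmoFF (log2 change 1.55, SE 0.31, adjusted p = 0.00126). The groups stood apart in both. Of 22 heat shock genes 4 rose and 2 fell, and 1 fell without any 1 of the 4 Gli2FFGli3FF libraries or SmoFF replicate 1 or 4. The share that fell was near the 8.83% over all genes tested. Of 19 genes of the amino acid and integrated stress response 3 fell (Atf5, Asns and Vldlr) and 0 rose by edgeR, with a median log2 change of −0.62. In the higher direction 0 had an unadjusted p under 0.05 and 0 were called by DESeq2 or limma voom, and with the ribosomal RNA covariate 0 were lower. Of 17 targets of p53 3 rose and 1 fell, the share that fell being under the 8.83% over all genes tested. Ccng1, a cyclin, rose by 1.09 and Phlda3, an inhibitor of Akt signalling, fell by 1.54 on the log2 scale (adjusted p = 0.000636 and 0.000395).

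Pcna, the sliding clamp of DNA replication, stood at 46.8, 42.04, 61.5 and 73.7 CPM in Gli2FFGli3FF and 20.1, 18.9, 21.5 and 13.1 CPM in SmoFF (log2 change 1.60, SE 0.25, adjusted p = 8.91e-05). It was 1 of 4 genes that rose among 40 of the cell cycle, against 7.68% higher over all genes tested. That count was 1 without Gli2FFGli3FF replicate 1 or SmoFF replicate 3 or 4, 2 without SmoFF replicate 2 and 11 without SmoFF replicate 1. With the ribosomal RNA covariate it was 0. Egr2, an immediate-early zinc finger factor, stood at 30.5, 25.3, 12.3 and 23.8 CPM in Gli2FFGli3FF and 3.4, 4.62, 7.01 and 7.08 CPM in SmoFF (log2 change 2.05, SE 0.43, adjusted p = 0.00215). Of 31 immediate-early genes 2 rose (Egr2 and Fos) and 5 fell (Ier2, Junb, Jund, Klf2 and Egr1), with a median log2 change of −0.32. The share that rose was near the 7.68% over all genes tested. The lower count was 2 without Gli2FFGli3FF replicate 1 or 2 and 3 without Gli2FFGli3FF replicate 3 or SmoFF replicate 3 or 4, and the higher count was 1 without Gli2FFGli3FF replicate 4 or SmoFF replicate 1, 2 or 3. Of the same list 4 were higher and 0 lower with GC and length offsets, and 3 and 0 with the ribosomal RNA covariate. The groups did not overlap for Pcna or Egr2.

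Rps2 was also low in the single Gli deletions, at 26 and 24.7 CPM in the Gli2FF and 62.8 and 41.5 CPM in the Gli3FF libraries, where Rps2-ps13 stood at 59.2 and 73.5 and at 242 and 164 CPM. The 5 wild type libraries had 409 to 601 CPM of Rps2 and 9.59 to 16.9 CPM of Rps2-ps13.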
